A study of Mus musculus with 20 samples.

Results

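The small nucleolar RNAs (snoRNAs) and small Cajal body RNAs (scaRNAs) are short noncoding RNAs that guide the modification of other RNAs. They were taken as the rows of the deposited expression table whose gene names begin with Snora, Snord or Scarna followed by a digit, with at least 1 TPM in at least 5 of the 20 libraries. TPM is the share of a transcript among all transcripts of a library after division by its length, scaled to a constant total. All 73 rows with such names passed, out of 34234 rows in the table, and the sparsest of them, Snord61, reached 1 TPM in 8 libraries. No row lay just inside or just outside the limit of 5 libraries. By name, 43 are box C/D snoRNAs, 21 are box H/ACA snoRNAs and 9 are scaRNAs. Another 74 names of the same form in the GENCODE M21 annotation were not analysed here.

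They were measured by bulk sequencing of total RNA. The kidney tumours grew in mice from MSRT1, a single cell line whose label is renal medullary carcinoma, with 1 library per mouse and 5 mice per group. GYY_PD1 mice received GYY4137, a slow-releasing donor of hydrogen sulfide, together with an antibody against the checkpoint receptor PD1. GYY_IgG mice received GYY4137 with control IgG, Veh_PD1 mice received vehicle with the PD1 antibody, and Veh_IgG mice received vehicle with control IgG. Doses, mouse strain and age are not given in the sources used here. The replicates are labelled biological, so the p-values measure the spread between these mice.

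Box C/D snoRNAs base pair with ribosomal RNA and carry the methyltransferase fibrillarin, which methylates the paired nucleotide on its ribose, whereas box H/ACA snoRNAs carry the enzyme dyskerin, which turns uridine into pseudouridine. A few of them, such as Snord118 and the Snora73 pair, are needed to cleave the ribosomal RNA precursor. scaRNAs do the same kinds of modification on spliceosomal RNAs in Cajal bodies. Most vertebrate snoRNAs lie in introns of host genes and are trimmed out of the spliced intron, so that a growing cell makes them together with ribosomal proteins and translation factors.

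The sequences of 9 of the RNAs are given below: 4 of the most abundant C/D RNAs, the most abundant H/ACA RNA, 1 scaRNA and the 3 C/D RNAs with the smallest p for GYY_PD1 against Veh_IgG or Veh_PD1. They are read from the GENCODE M21 transcripts on mm10, in the sense of the RNA and written with T. Capitals mark a match to the C box, searched as NTGATGA in the first 20 bases, and to the D box, searched as CTGA in the last 20 bases; in Snora73b they mark the H box, searched as ANANNA within 20 bases of the middle, and the ACA box, searched as ACA with 2 to 4 bases after it up to the 3′ end.
Snord11: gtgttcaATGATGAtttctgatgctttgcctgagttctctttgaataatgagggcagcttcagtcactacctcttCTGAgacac
Snord83b: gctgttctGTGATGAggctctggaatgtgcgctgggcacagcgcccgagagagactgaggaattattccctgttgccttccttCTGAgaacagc
Snord104: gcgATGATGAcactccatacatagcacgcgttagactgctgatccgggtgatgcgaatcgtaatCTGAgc
Snord73a: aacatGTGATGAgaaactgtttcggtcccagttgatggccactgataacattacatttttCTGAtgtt
Snora73b: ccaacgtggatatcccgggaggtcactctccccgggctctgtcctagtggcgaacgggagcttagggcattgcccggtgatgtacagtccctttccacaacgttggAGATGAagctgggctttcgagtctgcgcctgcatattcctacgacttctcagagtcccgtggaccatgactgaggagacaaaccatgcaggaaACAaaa
Scarna9: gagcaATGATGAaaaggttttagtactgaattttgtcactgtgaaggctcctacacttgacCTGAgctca
Snord87: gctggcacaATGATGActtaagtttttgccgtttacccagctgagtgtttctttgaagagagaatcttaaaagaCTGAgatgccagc
Snord111: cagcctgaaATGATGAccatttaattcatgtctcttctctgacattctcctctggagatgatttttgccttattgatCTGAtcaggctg
Snord35a: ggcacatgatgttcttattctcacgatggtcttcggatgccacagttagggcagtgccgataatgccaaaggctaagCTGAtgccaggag

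Snord11 lies at chr1:59704790-59704873 on the plus strand within Nop58. Snord83b lies at chr15:80078498-80078591 (minus) in an intron of Rpl3, Snord73a at chr3:86138791-86138858 (minus) in Rps3a1, and Snord104 at chr11:106500993-106501062 (plus) in no annotated host. Snora73b lies at chr4:132352322-132352526 (minus) in the overlapping hosts Rcc1 and Snhg3, and Scarna9 at chr9:15326264-15326333 (minus) in Cep295. Snord87 lies at chr1:9942463-9942549 (minus) in Snhg6, Snord111 at chr8:110838528-110838616 (minus) in the splicing factor gene Sf3b3, and Snord35a at chr7:45126346-45126435 (minus) in the ribosomal protein gene Rpl13a.

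The box letters followed the class names. Of the 43 C/D RNAs, 42 (97.7%) held CTGA near the 3′ end and 27 (62.8%) held the C box letters near the 5′ end, and all 21 H/ACA RNAs held ACA at the 3′ end. Among 1485 other annotated snoRNA and scaRNA genes the shares were 33.1%, 20% and 44.6% for the D, C and ACA letters. Among 1160 annotated small nuclear RNA genes of 60 to 150 bases they were 3.45%, 0.0862% and 1.98%. On the opposite strand the C box letters were in none of the 73, the D box letters in 6 and the ACA letters in 9. The H box letters are too loose to set the class apart, being in 19 of the 21 H/ACA RNAs (90.5%) and in 87.0% of the small nuclear RNA genes. The letters of a C box preceded by C contain those of a D box, and those of an H box can contain ACA. C/D RNAs had a median length of 81 bases (64 to 238), H/ACA RNAs one of 137 (128 to 205) and scaRNAs one of 140 (70 to 414).

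Libraries differed in what the TPM were spent on. A set of 13 gene models that resemble mouse major satellite, a pericentromeric repeat, took 25.8% to 83.4% of TPM in GYY_PD1, 5.86% to 54.9% in GYY_IgG, 1.63% to 59.6% in Veh_PD1 and 3.53% to 13.2% in Veh_IgG. Nuclear protein-coding genes held 2.93% to 42.9% of TPM. Levels below are therefore rescaled TPM, in which the nuclear protein-coding genes sum to 1000000 in each library, unless deposited TPM are named. GYY_PD1 replicates 1 and 4 stood apart, with coding shares of 5.26% and 2.93%, and many results that rest on them are also given without them. The counts of unadjusted p under 0.05 against Veh_PD1, against GYY_IgG and for the interaction are given with all libraries only. The epithelial keratins Krt8 (517 ± 227 in GYY_PD1, 610 ± 194 in GYY_IgG, 541 ± 137 in Veh_PD1 and 696 ± 205 rescaled TPM in Veh_IgG, SD, n = 5) and Krt18, with vimentin, were high in all groups. In bulk tumour, fewer cells of a type and less RNA per cell cannot be told apart.

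The C/D RNAs held 62.9% of the summed rescaled TPM of the 73, the H/ACA RNAs 22.2% and the scaRNAs 14.9%. The level was concentrated in few RNAs, with 8 of them holding 54.3% and 20 of them holding 80.3% of the sum. Snord11 had the highest mean over the 20 libraries (2979 rescaled TPM), followed by Snord13 (2672), whose human counterpart guides the acetylation of small-subunit ribosomal RNA. Snora73b (2427), Scarna17, Snord83b (2067), Snord104 (1756), Snora74a (1338) and Snord73a (1134) came next. The first 3 of this order did not differ beyond their spread, since in Veh_IgG alone Snord11 had 2507 ± 449, Snord13 2912 ± 1375 and Snora73b 2640 ± 562 rescaled TPM (SD, n = 5). At the low end, Snord90, Snord61, Scarna3b and Snora19 had means of 10.3, 11.4, 12.7 and 13.5 rescaled TPM. The top 3 scaRNAs were Scarna17, Scarna9 (773 rescaled TPM), whose human counterpart guides modification of the spliceosomal U2 RNA, and Scarna2 (720).

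**Figure D1:**
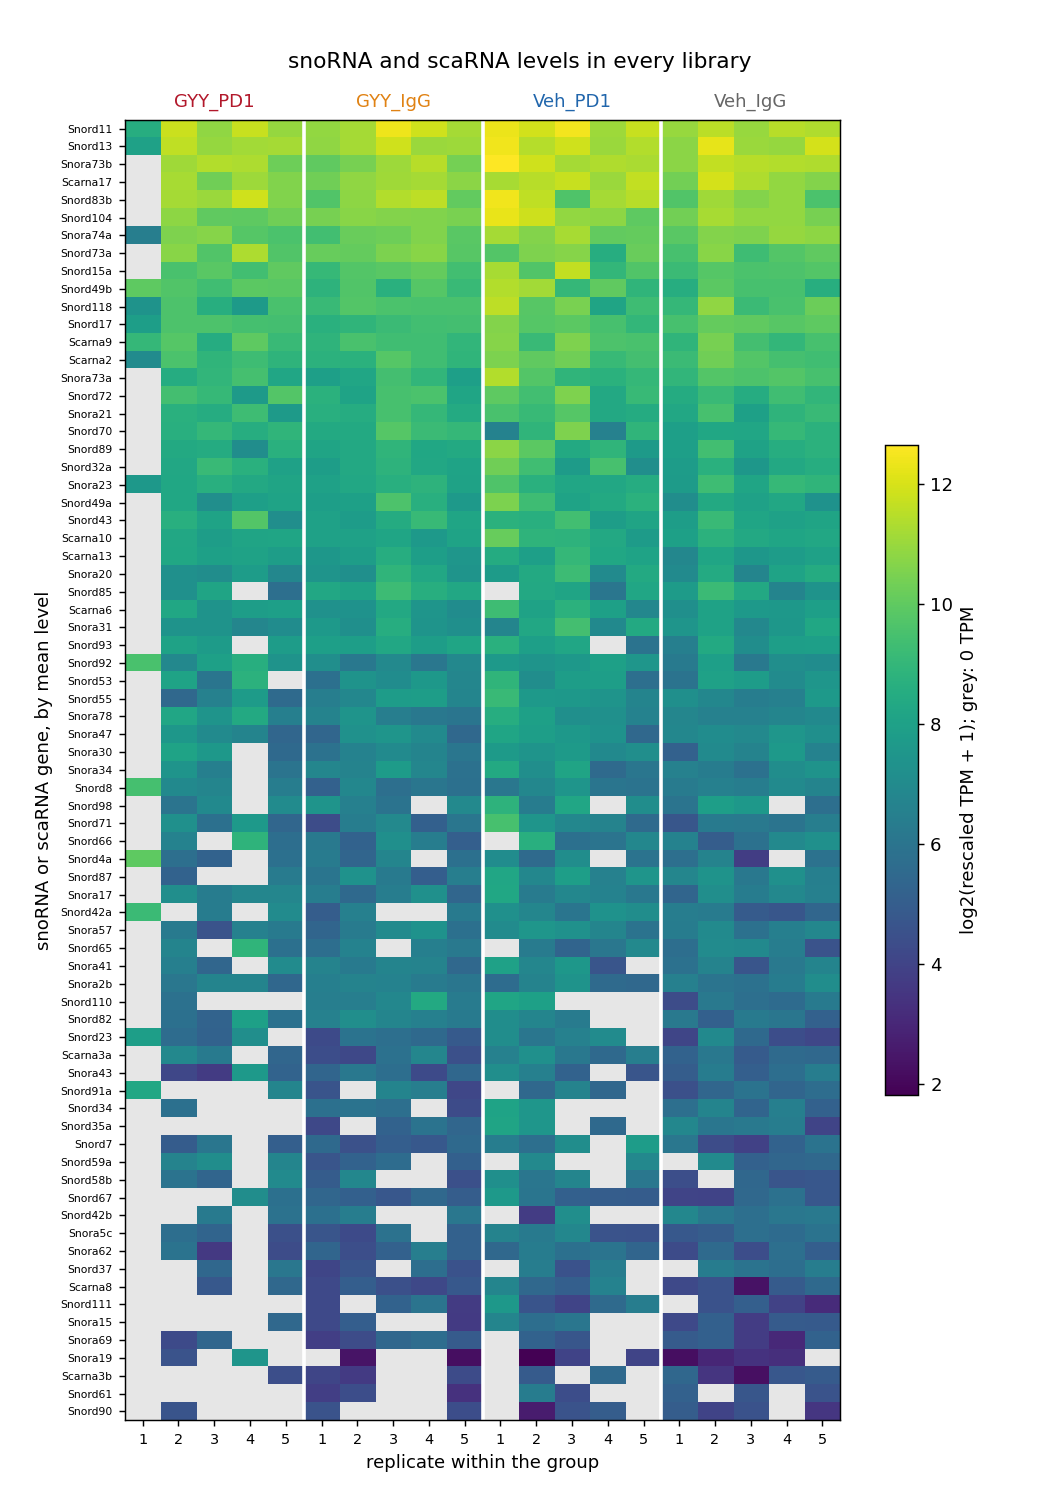
Level of each of the 73 RNAs (down the page, ordered by mean) in each of the 20 libraries (across, by group and replicate), as log2(rescaled TPM + 1), with 0 TPM in grey. Grey cells gather at the bottom of the map and in the column of GYY_PD1 replicate 1, which has 58 RNAs at 0 TPM.

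RNAs of the same host gene could stand at different levels. Nop58, which encodes a core C/D protein, hosts Snord11 at 2979 and Snord70 at 448 rescaled TPM. Rpl13a hosts Snord32a at 386, Snord34 at 51.3 and Snord35a at 50.9, and Rpl23a hosts Snord4a at 103, Snord42a at 94.9 and Snord42b at 43.8 rescaled TPM. The order within Rpl23a rested on GYY_PD1 replicate 1. Without that library the means were 54.6 for Snord4a and 68.7 for Snord42a. In Veh_IgG the order was reversed, with means of 45.3 for Snord4a, 51.7 for Snord42a and 75.9 for Snord42b. Snord4a and Snord42a also share all their 31-base words with transcripts of another gene. Snora73b and Snora73a, neighbours in Snhg3 with 96.6% identical bases over 205 positions, stood at 2427 and 627 rescaled TPM. Every 31-base word of Snora73b recurs in another annotated transcript, Snora73a among them, so how the counting divided reads between them is uncertain. In all, 26 of the 73 share at least one 31-base word with another gene, 17 share most of theirs and 7 share all, and 11 overlap an exon of another transcript, mostly an intron retained by the host.

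Of the 73 RNAs, 65 lie within a gene on the same strand, 16 of them in ribosomal protein genes. TPM are levels per length, but how the effective length of RNAs this short was set is not given in the sources used here, and it scales every ratio of an RNA to its far longer host. Over 67 pairs of RNA and host in the table, the RNA had the higher mean in 33, and the ratio of RNA to host ranged between 0.0231 and 266 with a median of 0.980. Snord11 stood 22.9-fold above Nop58 (130 rescaled TPM) and Scarna9 30.7-fold above Cep295. Snord42b lay at 0.0231 times Rpl23a (1896 rescaled TPM) and Snora31 at 0.0359 times Tpt1 (5928 rescaled TPM). The highest ratio, 266, belonged to Snora30 and the lowly expressed model Gm42715 that overlaps it, while against Srcap, its other host, it was 18.8.

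**Figure D2:**
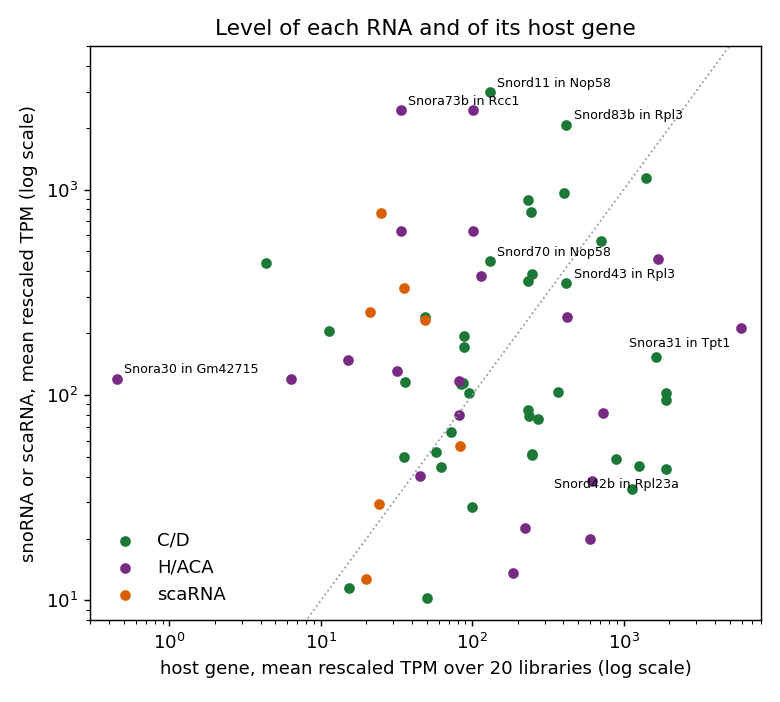
Mean rescaled TPM of each RNA (vertical, log scale) against that of its host gene (horizontal, log scale) over 20 libraries, for 67 pairs, coloured by class. The dotted line marks equal levels, and 33 of the 67 points lie above it.

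Detection, meaning a value above the minimum of the table, was lowest in GYY_PD1. Of the 73 RNAs, 15, 62, 59, 44 and 63 were above 0 TPM in GYY_PD1, 72, 69, 63, 60 and 73 in GYY_IgG, 61, 73, 68, 58 and 58 in Veh_PD1, and 70, 71, 73, 69 and 72 in Veh_IgG. All 5 GYY_PD1 libraries lay below all 5 Veh_IgG libraries, and GYY_PD1 overlapped with both single treatments. The means were 48.6 ± 20.3 in GYY_PD1, 67.4 ± 5.68 in GYY_IgG, 63.6 ± 6.66 in Veh_PD1 and 71.0 ± 1.58 in Veh_IgG (SD, n = 5), and the GYY_PD1 mean was 61.3 ± 2.08 without replicates 1 and 4. Of all genes tested, 91.7% ± 5.78 were above 0 TPM in GYY_PD1 and 97.3% ± 0.630 in Veh_IgG (SD, n = 5). These shares did not overlap either, with a highest of 95.98% in GYY_PD1 and a lowest of 96.57% in Veh_IgG. The lack of overlap in detection between GYY_PD1 and Veh_IgG was therefore not particular to the 73 RNAs.

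The satellite-like share moved with detection. In the 10 libraries above a share of 20%, 15 to 63 RNAs were detected, and in the 10 below it 68 to 73. All GYY_PD1 libraries and no Veh_IgG library lay above 20%. Within the libraries above 20%, GYY_PD1 had 15 to 63 RNAs, the 2 of GYY_IgG had 60 and 63 and the 3 of Veh_PD1 had 58 to 61, so that the groups overlapped there. The part of the satellite-like share in the detection was not tested, and between GYY_PD1 and Veh_IgG it cannot be told apart from the treatment.

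**Figure D3:**
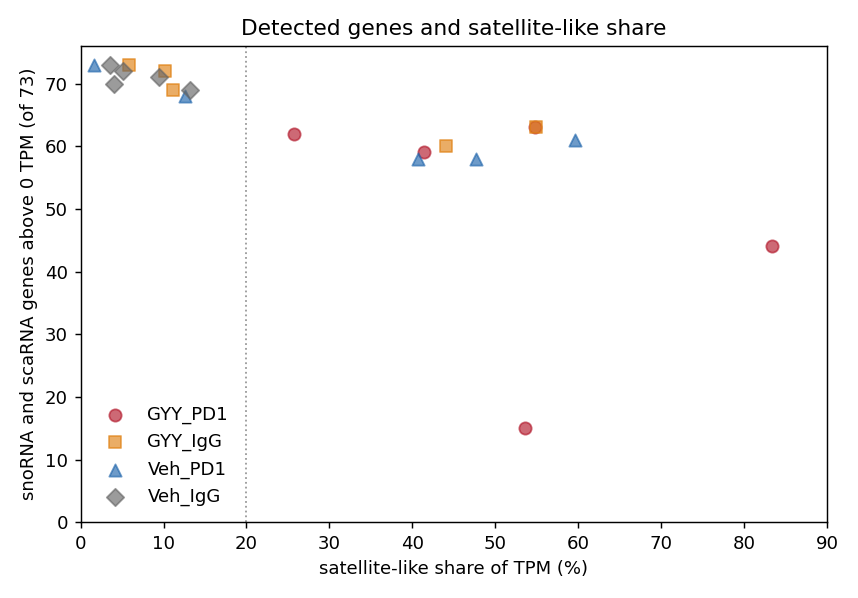
Number of the 73 RNAs above 0 TPM (vertical) against the satellite-like share of TPM in percent (horizontal), 1 point per library, with the dotted line at 20%. The 10 libraries left of the line hold 68 to 73 RNAs, those right of it 15 to 63, and 1 GYY_PD1 and 1 GYY_IgG point coincide at 63 RNAs.

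Undetected RNAs were mostly those of low mean level. That mean includes the values at 0 TPM, so the link is partly built in. The 24 RNAs of lowest mean had a median of 13 detected per library in GYY_PD1, 20 in GYY_IgG, 15 in Veh_PD1 and 22 in Veh_IgG. The 25 of highest mean were all detected in every library except GYY_PD1 replicate 1, which had 9. Over all 1460 values of the 73 RNAs, 207 (14.2%) were at 0 TPM and 1 lay between 0 and 1 TPM, Snora19 in Veh_PD1 replicate 2. Among the other genes tested 4.47% of values were at 0 and 13.3% between 0 and 1 TPM. With that 1 exception, each of the 73 RNAs was listed in a library either at 0 TPM or at 1 TPM or more.

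Of the 73, 10 were detected in all 20 libraries: Snord11, Snord13, Snord17, Snord49b, Snord92, Snord118, Snora23, Snora74a, Scarna2 and Scarna9. A further 27 were missing from 1 library, which was GYY_PD1 replicate 1 for 26 of them and GYY_PD1 replicate 4 for the other. Snord35a, Snord61 and Snord111 were at 0 TPM in all 5 GYY_PD1 libraries, and no RNA was missing from all libraries of any other group. Group by group, 10 RNAs were in every library of GYY_PD1, 55 of GYY_IgG, 47 of Veh_PD1 and 64 of Veh_IgG. The GYY_PD1 count could not exceed the 15 RNAs above 0 TPM in its replicate 1, so it reflects that library more than the group.

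GYY_PD1 replicate 1 kept an uneven subset of 15. Its levels of Snord11 (377 rescaled TPM) and Snord13 (257) were below those of every other library, where the means were 3116 and 2799. Scarna17, Snora73b, Snord83b, Snord104 and Snord73a, all among the 8 most abundant elsewhere, were at 0. Its levels of Snord4a (1015), Snord8 (699), Snord42a (592), Snord91a (312) and Snord92 (738) were above every other library, where the highest values were 138, 177, 164, 107 and 397 rescaled TPM. Snord4a and Snord42a share all their 31-base words with transcripts annotated to Tlcd1, a neighbouring gene.

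The summed level of the 73 depended on the scale. On deposited TPM the sums were 344, 7137, 4732, 931 and 3715 in GYY_PD1, against 8490, 11648, 8535, 8594 and 10979 in Veh_IgG, with every GYY_PD1 library below every Veh_IgG library. On rescaled TPM they were 6552, 31845, 24490, 31743 and 22751 in GYY_PD1, against 19774, 41547, 26811, 29265 and 29498 in Veh_IgG, and the groups overlapped. GYY_IgG ranged between 19405 and 35922 and Veh_PD1 between 25583 and 66549 rescaled TPM.

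GYY_PD1 was set against Veh_IgG to see what both treatments together did to the tumour. Each RNA was fitted with all 15422 genes that passed the same filter, with limma on log2(rescaled TPM + 1), and called at a Benjamini-Hochberg adjusted p under 0.05. None of the 73 was called, and of all genes tested 0% were. Without adjustment 16 of the 73 had p under 0.05, where 13.4% of all genes did. Of these, 15 were lower in GYY_PD1 (8.83% of all genes) and 1 was higher (4.52%). The log2 difference was below 0 for 68 of the 73 (69.9% of all genes), with a median of -1.81 over the 73 and of -0.30 over all genes. The median of the 73 was -0.49 without GYY_PD1 replicate 1 and -0.33 without replicates 1 and 4, when 53 and 49 of the 73 were below 0. Without both replicates the median over all genes was 0.00, with 7617 of the 15422 below 0. The unadjusted p was then under 0.05 for 6 of the 73, all lower in GYY_PD1. Of all 15422 genes, 504 had such a p with a lower level and 610 with a higher one. On deposited TPM 58 of the 73 were called lower in GYY_PD1, where 69.8% of all genes were, and on the deposited log2 values with their floor 44 were, where 69.9% of all genes were.

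Snord87, a C/D RNA of the host Snhg6, had the smallest p in this comparison. It had 0, 37.0, 0, 0 and 79.5 rescaled TPM in GYY_PD1, against 109, 165, 69.7, 151 and 90.5 in Veh_IgG. The highest GYY_PD1 library lay above the lowest Veh_IgG library, and the other 4 lay below all of them. The log2 difference was -4.50 (SE 1.00, limma adjusted p = 0.238), and without GYY_PD1 replicate 5 it was -5.50 and was called (adjusted p = 0.0151). Without GYY_PD1 replicates 1 and 4 it was -2.95 (SE 0.96, limma adjusted p = 0.477). The GYY_IgG libraries had 63.8, 162, 76.7, 32.6 and 87.6, and the Veh_PD1 libraries 297, 114, 238, 95.6 and 177 rescaled TPM, with no library at 0 in either. Its host Snhg6 had 81.6 ± 32.6 rescaled TPM in GYY_PD1 and 84.9 ± 20.3 in Veh_IgG (SD, n = 5).

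Snord35a was listed at 0 in all 5 GYY_PD1 libraries, against 113, 66.0, 73.4, 84.7 and 15.4 rescaled TPM in Veh_IgG. It was the only one of the 73 (1.37%) whose 5 GYY_PD1 libraries all lay below all Veh_IgG libraries, where 1.63% of all genes did so. Both single treatments overlapped with Veh_IgG, with 17.1, 0, 36.3, 61.4 and 40.8 in GYY_IgG and 280, 184, 0, 45.0 and 0 in Veh_PD1. The fitted log2 difference was -5.92 (SE 1.4, limma adjusted p = 0.267), whose size depends on the added constant because one group is at 0. In a fit of these 2 groups alone it was called (limma adjusted p = 0.00134). In that fit GYY_PD1, at 0 in every library, added no spread of its own for Snord35a. Its neighbours in Rpl13a differed. Snord34 was above 0 in 1 of 5 GYY_PD1 libraries and in 5 of 5 Veh_IgG libraries. Snord32a, the most abundant of them, was not lower, with means of 314 rescaled TPM in GYY_PD1 and 307 in Veh_IgG. The host itself had 183 ± 93.4 rescaled TPM in GYY_PD1 and 240 ± 48.5 in Veh_IgG (SD, n = 5).

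Snord92 was the RNA with p under 0.05 and a higher level in GYY_PD1. It had 738, 116, 249, 397 and 166 rescaled TPM in GYY_PD1, against 76.2, 247, 72.7, 142 and 137 in Veh_IgG. The groups overlapped, and the log2 difference was 1.14 (SE 0.42, limma adjusted p = 0.354). It was 0.77 without GYY_PD1 replicate 1 and 0.47 without replicates 1 and 4, and on deposited TPM it had the other sign (-0.55).

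**Figure D4:**
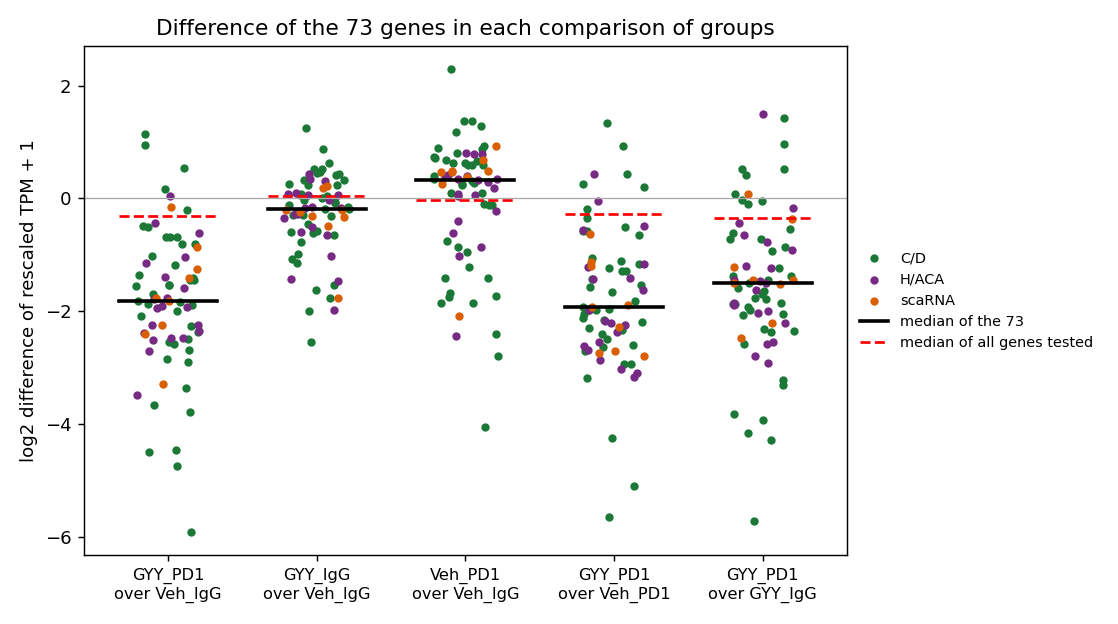
Difference between groups in log2(rescaled TPM + 1) (vertical) for each of the 73 RNAs in the 5 comparisons of groups (horizontal), 1 point per RNA, coloured by class. The black line is the median of the 73 and the dashed red line that of all 15422 genes tested, -1.81 and -0.30 in the comparison on the left.

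GYY_PD1 was set against Veh_PD1 to see what the donor adds to the antibody. None of the 73 was called, with 1 gene (0.00648%) called in the whole table, and 22 of the 73 had an unadjusted p under 0.05, all lower in GYY_PD1, where 10.5% of all genes had such a p and 7.59% had it with a lower level. The median log2 difference was -1.93 over the 73 and -0.27 over all genes. It was -0.67 over the 73 without GYY_PD1 replicate 1, and without replicates 1 and 4 it was -0.59 over the 73 and 0.03 over all genes. Snord111 was listed at 0 in all GYY_PD1 libraries and had 190, 23.5, 15.4, 45.9 and 85.2 rescaled TPM in Veh_PD1. Its fitted difference was -5.64 (SE 0.99, limma adjusted p = 0.0567). The size of this and of every other Snord111 difference that involves GYY_PD1 depends on the added constant, because GYY_PD1 is at 0. Snord111 was called in a fit of these 2 groups alone (adjusted p = 0.0131), without GYY_IgG replicate 2 (adjusted p = 0.0207) and without Veh_IgG replicate 1 (adjusted p = 0.0176). In each of these fits GYY_PD1, at 0 in every library, added no spread of its own for Snord111. Snord87 was also lower in every GYY_PD1 library than in every Veh_PD1 library, at -5.09 (SE 1.00, adjusted p = 0.124), and was called without GYY_PD1 replicate 5 (adjusted p = 0.00382). Without GYY_PD1 replicates 1 and 4, Snord111 lay at -5.64 (limma adjusted p = 0.217) and Snord87 at -3.55 (limma adjusted p = 0.350). These 2 RNAs (2.74% of the 73) were the ones without overlap and lower, where 0.707% of all genes were.

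Snord111 has 66.1% of its 31-base words in a transcript of Sf3b3 that retains the intron. Sf3b3 had 87.1 ± 28.5 rescaled TPM in GYY_PD1, 109 ± 3.96 in GYY_IgG, 102 ± 7.17 in Veh_PD1 and 98.3 ± 9.44 in Veh_IgG (SD, n = 5). Snord111 was also at 0 in 1 of the 5 Veh_IgG libraries, where the other 4 had 22.5, 33.3, 14.4 and 7.88, and in 1 of the 5 GYY_IgG libraries.

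**Figure D5:**
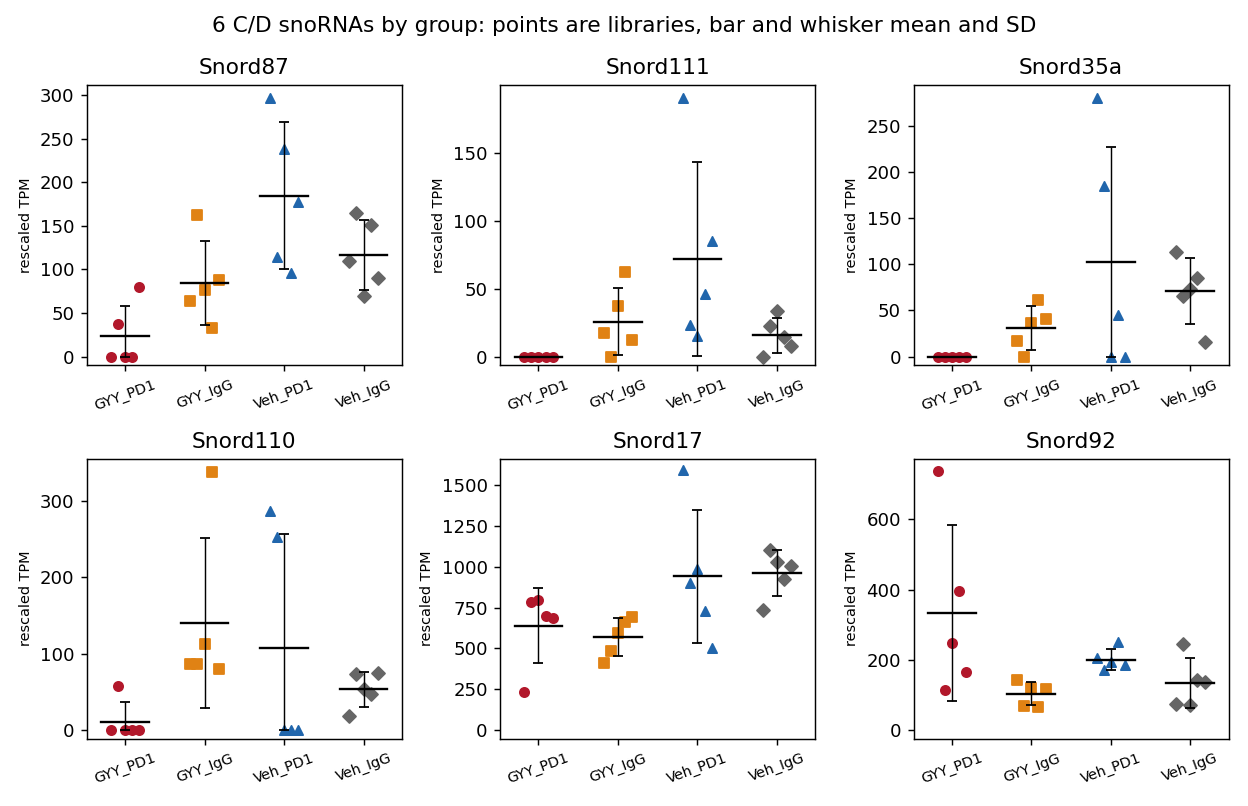
Rescaled TPM (vertical) of 6 C/D snoRNAs in the 4 groups (horizontal), 1 point per library, with the mean as a bar and the SD as whiskers that end at 0. Snord111 and Snord35a are at 0 in all 5 GYY_PD1 libraries, and Snord17 in GYY_IgG (412 to 692) lies below Veh_IgG (734 to 1103).

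GYY_PD1 was set against GYY_IgG to see what the antibody adds to the donor. None of the 73 (0% of all genes) was called and 11 had an unadjusted p under 0.05, where 9.3% of all genes did, 10 of them lower (7.2% of all genes) and 1 higher (2.09%). The median log2 difference was -1.50 over the 73 and -0.34 over all genes. Over the 73 it ranged between -2.10 and -0.30 when each library was left out. Snord87 (-3.92, SE 1.00) and Snord111 (-3.83, SE 0.99) had the smallest p (limma adjusted p = 0.410 for both), and without GYY_PD1 replicates 1 and 4 Snord87 lay at -2.38 and Snord111 at -3.83 (limma adjusted p = 1 for both). Snord110, a C/D RNA of Nop56, had 0, 57.9, 0, 0 and 0 rescaled TPM in GYY_PD1, against 86.7, 86.2, 112, 338 and 79.7 in GYY_IgG, with no overlap. It was the one RNA of the 73 (1.37%) in that state and lower, where 0.927% of all genes were. Its log2 difference was -5.72 (SE 1.54) with all libraries and -4.93 (SE 1.86) without GYY_PD1 replicates 1 and 4. In Veh_PD1 Snord110 was at 0 in 3 of 5 libraries, and its host Nop56 had 211 ± 31 rescaled TPM in GYY_PD1 and 290 ± 112 in GYY_IgG (SD, n = 5).

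GYY4137 alone was set against vehicle under control IgG. None of the 73 was called (0% of all genes), 1 had an unadjusted p under 0.05 (0.687% of all genes), and the median log2 difference was -0.18 over the 73 and 0.04 over all genes. That RNA was Snord17, a C/D RNA in Snx5, with 412, 487, 594, 660.5 and 692 rescaled TPM in GYY_IgG, against 734, 1103, 1031, 927 and 1006 in Veh_IgG. All GYY_IgG libraries lay below all Veh_IgG libraries, with a log2 difference of -0.77 (SE 0.33, limma adjusted p = 1). The two-sided exact permutation p was 0.00794, the smallest that 252 splits allow and not adjusted for the number of RNAs, and 0.331% of all genes were in that state. Snord110 was in the opposite state, with every GYY_IgG library above the Veh_IgG range of 19.3 to 75.4 rescaled TPM, where 0.752% of all genes were. Snord17 in the other groups had 236, 786, 797, 696 and 687 in GYY_PD1 and 1591, 899, 983, 726 and 505 in Veh_PD1, both of which overlapped with Veh_IgG.

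The antibody alone was set against control IgG under vehicle. Again 0 of the 73 (0% of all genes) were called with limma, 2 had an unadjusted p under 0.05 (1.21% of all genes), and the median log2 difference was 0.33 over the 73 and -0.02 over all genes. Snord42b, of Rpl23a, had 0, 12.3, 142, 0 and 0 rescaled TPM in Veh_PD1, against 112, 71.3, 53.2, 69.0 and 73.6 in Veh_IgG. Its difference was -4.04 (SE 1.67, adjusted p = 1), with 3 Veh_PD1 libraries at 0 and the highest value of these 10 libraries in another. Snord111 had the second smallest p, at 2.29 (SE 0.99, adjusted p = 1).

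Veh_PD1 had the highest group mean of rescaled TPM for 51 of the 73 RNAs (69.9%), as for 23.5% of all genes tested. The count was 41 without Veh_PD1 replicate 1, the library with the highest sum and a satellite-like share of 59.6%, and 30 on deposited TPM (4.34% of all genes). Snora73b was one such RNA, with 6454, 3804, 2375, 2646 and 2516 rescaled TPM in Veh_PD1, against 1728, 3249, 2861, 2755 and 2608 in Veh_IgG. Its Veh_PD1 mean of 3559 ± 1715 and its Veh_IgG mean of 2640 ± 562 (SD, n = 5) differed by less than the spread in Veh_PD1, where replicate 1 was far above the rest.

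The interaction, the part of the combined difference that the sum of both single differences leaves, was called for 0 of the 73 and 0% of all genes with limma. Without adjustment 5 of the 73 (2.15% of all genes) had p under 0.05, each with a negative value (1.65% of all genes). They were led by Snord111 (-6.12, SE 1.41) and Snord87 (-4.52, SE 1.41), both with an adjusted p of 0.812. Without GYY_PD1 replicates 1 and 4 they lay at -6.12 for Snord111 and -2.97 for Snord87 (limma adjusted p = 1 for both). The 3 comparisons against Veh_IgG share those 5 libraries, and the 3 that involve GYY_PD1 share its libraries.

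Lists of the other genes of the pathway were also measured, and limma called 0 of their genes in any of the 6 comparisons. Without adjustment, p was under 0.05 for GYY_PD1 against Veh_IgG in 1 of 4 C/D core proteins, 2 of 10 Cajal body genes, 1 of 16 Snhg genes, 1 of 3 other structured RNAs and 1 of 54 host genes, each lower, where 8.83% of all genes were, and in 0 of the H/ACA core proteins, assembly factors and maturation genes. Of the 4 box C/D core proteins, all were lower in GYY_PD1 than in Veh_IgG, with a median log2 difference of -0.39. Fbl, the methyltransferase fibrillarin, had 113 ± 21.8 rescaled TPM in GYY_PD1 and 115 ± 12.6 in Veh_IgG, and Nop58 had 94.5 ± 45.8 in GYY_PD1 and 128 ± 10.4 in Veh_IgG (SD, n = 5). Without GYY_PD1 replicates 1 and 4 the log2 difference was -0.04 for Fbl and -0.09 for Nop58. Snu13, which binds the motif formed by the C and D boxes, had the smallest p of the 4 (-0.71, SE 0.30, limma adjusted p = 0.374; -0.20 without GYY_PD1 replicates 1 and 4), and Nop56 lay at -0.08 (SE 0.21). Of the 4 H/ACA core proteins, 3 were lower. Dkc1, the pseudouridine synthase dyskerin, had a difference of -0.24 (SE 0.35), Nop10 of -0.57 (SE 0.27), Gar1 of -0.52 (SE 0.51) and Nhp2 of 0.25 (SE 0.37). Without GYY_PD1 replicates 1 and 4, Dkc1 and Nhp2 changed sign, to 0.16 and -0.27, and Nop10 lay at -0.22 and Gar1 at -0.02.

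Among wider lists of the pathway, 9 of 12 assembly factors, 12 of 15 maturation and trimming genes and 8 of 10 Cajal body genes had a lower mean log2 level in GYY_PD1 than in Veh_IgG, with medians of -0.26, -0.31 and -0.30, close to that of all genes (-0.30). Coil, the scaffold coilin of the Cajal body, lay at -0.28 (SE 0.23), and Wrap53, which brings scaRNAs there, at -0.53 (SE 0.25, limma adjusted p = 0.374). Without GYY_PD1 replicates 1 and 4 Coil lay at -0.03 and Wrap53 at -0.38. The 54 tested host genes had a median of -0.46 with 49 lower, and the 16 tested genes named as snoRNA hosts (Snhg) a median of -0.70 with all 16 lower. Without GYY_PD1 replicates 1 and 4 these medians were near 0, at 0.01 for the host genes (26 of 54 lower), -0.05 for the Snhg genes (9 of 16 lower), -0.07 for the C/D core proteins, 0.04 for the assembly factors, -0.01 for the maturation genes and -0.04 for the Cajal body genes. The median of the H/ACA core proteins was -0.38 with all libraries and -0.12 without those replicates. Of other structured RNAs, Terc, the telomerase RNA, which ends in an H/ACA domain, had 43.0 ± 23.2 rescaled TPM in GYY_PD1 and 87.2 ± 31.3 in Veh_IgG (log2 difference -1.10, SE 0.46, adjusted p = 0.374). Rpph1, the RNA of ribonuclease P, had 11074 ± 5829 in GYY_PD1 and 18286 ± 2750 in Veh_IgG (-1.09, SE 0.56, adjusted p = 0.375). Without GYY_PD1 replicates 1 and 4 the difference was -1.13 for Terc and -0.46 for Rpph1.

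Markers of other cell types varied with the groups, and their part in the results above was not tested. All 5 erythroid markers had a lower mean in GYY_PD1 than in Veh_IgG, with Hbb-bs at 111 ± 90.5 rescaled TPM in GYY_PD1 and 362 ± 191 in Veh_IgG. The adipocyte marker Adipoq had 88.9 ± 187 in GYY_PD1 and 3.61 ± 6.95 in Veh_IgG, with an SD above the mean in both. Of 6 leukocyte markers, 3 had a higher and 3 a lower mean in GYY_PD1 than in Veh_IgG, and their summed level ranged between 548 and 3402 rescaled TPM in GYY_PD1 and between 2009 and 3664 in Veh_IgG. The T cell gene Cd3e had 8.29 ± 4.33 rescaled TPM in GYY_PD1 and 1.75 ± 0.585 in Veh_IgG, whereas the macrophage gene C1qa had 325 ± 191 in GYY_PD1 and 439 ± 74.5 in Veh_IgG (SD, n = 5). Of 3 neuronal genes, Snrpn and Snap25 averaged under 1 rescaled TPM in every group, and Rbfox3 had 12.2 ± 10.5 in GYY_PD1, 3.32 in GYY_IgG, 4.78 in Veh_PD1 and 2.27 ± 2.81 in Veh_IgG.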

How the data were processed

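Total RNA was sequenced from 20 kidney tumours, 5 per group. The authors deposited 1 table of log2 TPM with no constant added, in which 0 TPM stands as a floor of -8.88. The submitters' processing notes list HTSeq 0.11.0, Salmon 0.14.1, fastp, cutadapt and the build mm10, and which of them made the values is not given in the sources used here. TPM divide by length and keep no read number, so depth is unknown, a single read of a short RNA weighs more than one of a long RNA, and no counting interval is given. The labels state no selection of short RNAs.

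Values were raised back to TPM and rescaled so that 18685 nuclear protein-coding genes sum to 1000000, which leaves out the 13 satellite-like models and 1040 olfactory and vomeronasal receptor genes. Genes with at least 1 deposited TPM in at least 5 libraries (15422) entered a limma fit (version 3.58.1, R 4.3.3) on log2(value + 1), as 4 groups with 16 residual degrees of freedom and trended variance, for 5 differences between groups and the interaction. The fit was also run on simulated independent normal values. These had no floor at 0 TPM and no shifted library, so that run does not cover such features of the data. Single RNAs were also compared with a two-sided exact permutation test of 5 against 5 libraries. Names, positions, hosts and sequences come from GENCODE M21 on mm10, in which 33908 of the 34234 names were found. The sequence of Snord13 is not reported here.

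The 73 RNAs, the lists and the named genes were chosen with earlier results of these data known. Named are the 8 highest means, the 3 highest scaRNAs, the 2 smallest p of each comparison, RNAs above 0 in all libraries, their hosts and the core proteins; Snord110, Snord92, Snord34 and the RNAs compared within a host or within GYY_PD1 replicate 1 were chosen after their values were seen, as were the sequences of Snord87, Snord111 and Snord35a. Alternatives were other scalings, pseudocounts (0.1 and 5), filters, variance models, a replicate block, each library left out and GYY_PD1 replicates 1 and 4 left out.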

Additional observations from a re-analysis of the deposited data

Results flagged for a closer look

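In groups of 5 libraries, the values of each named RNA were searched for a library far from the other 4 (gap over range above 0.71, Dixon). Such a library was found in 10 of 84 sets of values. The chance rate of about 1 in 20 holds for independent normal values. It cannot be set against this count, because the sets share libraries and hold values at 0 TPM. In 9 of the 10 the far library was GYY_PD1 replicate 1 with the lowest value. It had 0 rescaled TPM for Scarna17, Snora73b, Snord104, Snord73a and Snord83b, 86.5 for Snora74a, 130 for Scarna2, 236 for Snord17 and 257 for Snord13. The other was Veh_IgG replicate 5, with the lowest Snord35a of its group (15.4 rescaled TPM). The cause of these values was not tested.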

How the results depend on the processing

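Depth is unknown and 14.2% of the values are at 0 TPM, which limits every RNA of low level. On deposited TPM, 58 of the 73 RNAs were called lower in GYY_PD1 than in Veh_IgG (10757 of all genes, whose median moved to -1.37), and 44 on the deposited log2 values with the floor, against 0 on rescaled TPM. In a fit of these 2 groups alone 1 was called. Against Veh_PD1, 1 was called on either deposited scale, in a fit of the 2 groups alone and at adjusted p under 0.1. Leaving out each library gave 0 to 1 called in both comparisons, and 0 in the other 4, where every other alternative also gave 0. Deposited TPM moved the mean summed level to 3372 in GYY_PD1, 6846 in GYY_IgG, 8528 in Veh_PD1 and 9649 in Veh_IgG, and the RNAs highest in Veh_PD1 to 30, against 41 to 55 under the other alternatives for that count, all chosen after seeing the data. Snord92 in GYY_PD1 over Veh_IgG had the other sign on deposited TPM (-0.55) and deposited log2 (-0.57). Whether scaling or treatment sets the deposited differences was not tested. Same replicate numbers did not pair the libraries (r of -0.17 to 0.18 over 30 pairs, 6 above 0.1), and with the replicate block 0 of the 73 were called in each of the 6 comparisons, so it changed no call.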
